A study of Mus musculus with 24 samples.

Results

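The genes that encode the proteins of the cytosolic ribosome were followed through the differentiation of mouse optic vesicle (OV) organoids. Members were the rows of the expression table whose symbol is Rpl or Rps with a number and at most 1 of the letters a, x or l, together with Rplp0, Rplp1, Rplp2 and Rpsa. This rule uses names only and found 83 of 49705 entries, 51 of the large subunit and 32 of the small subunit. Of these, 82 passed the filter on low values, and the one left out, Rpl32l, stayed between 0 and 6.21 normalized counts in every library. In the GENCODE M21 annotation 80 members are coding and 3 (Rps4l, Rpl6l and Rpl32l) are processed pseudogenes. Genes of the same ribosome with other names, such as Fau, Rack1 and Rps3a1, fall outside the rule and are described as a separate list.

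The study took polyA RNA from 24 libraries of organoids made from 1 mouse embryonic stem cell (mESC) line, Rx-GFP K/I EB5, in which GFP is expressed from the Rax locus. The 8 groups had 3 replicates each: live cells of days 0, 1, 2 and 3 regardless of GFP, and GFP-negative and GFP-positive cells of days 4 and 5. All were untreated. Each sample pooled 24 organoids, each organoid was started from 4500 cells, and Matrigel was added to 2% on day 1. For this differentiation the labels name GMEM with 1.5% knockout serum replacement, whereas the methods name a chemically defined medium. Rax marks the eye field (EF), the part of the anterior neural plate that forms the eyes, and the gate placed cells with low GFP in the GFP-negative samples. The replicates are described as biological replicates of the organoid cultures, all of this line, and the GFP-negative and GFP-positive cells of a day as sorted from the same samples. Whether the gates with the same replicate number shared a sample is not given in the sources used here.

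Each cytosolic ribosome carries a single copy of almost every ribosomal protein, with the stalk proteins as the known exception, and cells make the proteins in step with the ribosomal RNA. Their mRNAs are short, abundant and start with a stretch of pyrimidines, the terminal oligopyrimidine (TOP) motif, through which the mTORC1 pathway and Larp1 control their translation. Stem cells and early neural tissue grow fast and need many ribosomes, and a few ribosomal proteins have paralogues that are made mainly in particular tissues such as testis or muscle.

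Most members moved little between the stages when all libraries were used, and those that moved most were paralogues or retrocopies of other members. Rpl39l, Rpl10l, Rpl3l and Rps4l fell from day 0 to day 3 and again from day 3 to the GFP-positive cells of day 4. On both sorted days the GFP-positive cells also held less Rpl39l and Rpl10l than the GFP-negative ones, with log2-fold-changes between -2.72 and -4.03. In the fit of all libraries no member was called higher in any of the 6 comparisons, but without 1 library of day 0 that stood apart, 34 of 82 were higher on day 3 than on day 0, where 24% of all genes were. With all libraries, 3 members were called higher in that comparison after quantile normalization and 1 after centring on the members' median. In either direction 8.54% and 7.32% of the members were called in these fits, against 43.9% and 29.2% of all genes.

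Summed over the members, ribosomal protein genes held between 5.29% and 9.95% of a library's normalized counts, which totalled between 39849110 and 51587535. On day 0 the share was 9.95%, 5.29% and 5.84% in replicates 1, 2 and 3. It was 6.91%, 6.36% and 7.16% on day 1 and 7.97%, 7.33% and 7.54% on day 2. The 3 libraries of day 3 had 7.72%, 6.97% and 6.37%. Replicate 1 of day 0 stood apart, with a share above every other library and each of the 82 tested members above its own mean over the libraries, against 14 and 15 in the other day 0 replicates. That library also held 6.04% of mitochondrially encoded RNA, against 2.40% and 2.28% in the other day 0 libraries and 1.73% to 6.003% over the other 23. In GFP-negative cells the share was 5.79%, 5.84% and 7.83% on day 4 and 6.76%, 5.48% and 5.73% on day 5. In GFP-positive cells it was 6.94%, 6.02% and 5.65% on day 4 and 6.12%, 6.28% and 6.66% on day 5. The gates overlapped on both days. In bulk samples a lower share of a gene in all cells and fewer cells that express it cannot be told apart.

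**Figure D1:**
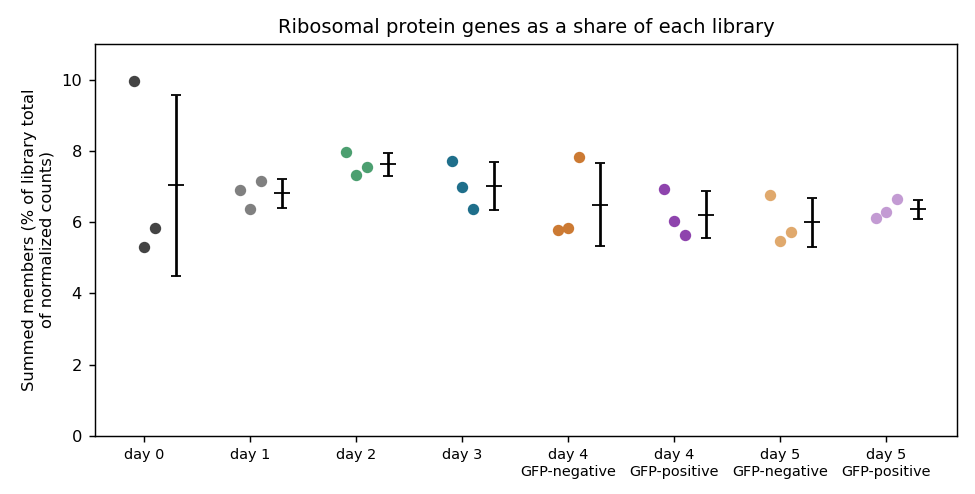
Points give the summed normalized counts of the 83 members in percent of each library's total, by group, and the bars beside them the mean and SD of 3 replicates. Replicate 1 of day 0, at 9.95%, lies above all others, and the other 23 libraries lie between 5.29% and 7.97%.

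The levels of the members varied together from library to library. For 76 core members, those tested other than Rpl10l, Rpl39l, Rpl3l, Rps4l, Rps27l and Rpl6l (a set chosen after the values were seen), the median correlation between 2 members was 0.804 over the 24 libraries, as a description. It was 0.768 over 23 libraries without replicate 1 of day 0. Deviations from the group means, which hold no difference between stages, correlated at a median of 0.838. That value was not computed without replicate 1 of day 0. In replicates 1, 2 and 3 of day 0 the core's median log2 deviation from the mean over all libraries was 0.817, -0.235 and -0.232. Replicate 1 can therefore weigh heavily in it. Rps6, the small subunit protein phosphorylated by S6 kinase, followed the core mean most closely at 0.985, and 62 core members were above 0.8. Rpl5, which carries the 5S ribosomal RNA with Rpl11, was at -0.14 as a single row, which holds 4.06% of the level of Rpl5 and its near-identical copies, and Rps2 was at 0.595.

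Other short transcripts varied with the core members. The 458 other genes with transcripts under 1000 bases and a mean above 1000 normalized counts had a median deviation per library that correlated with that of the core at 0.964 over the 24 libraries. For 2285 genes with transcripts over 4000 bases the correlation was -0.774. In replicate 1 of day 0 the core was 0.82 above its mean on the log2 scale, the other short genes 0.67 above and the long genes 0.49 below. The part of transcript length in the members' differences was not tested.

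**Figure D2:**
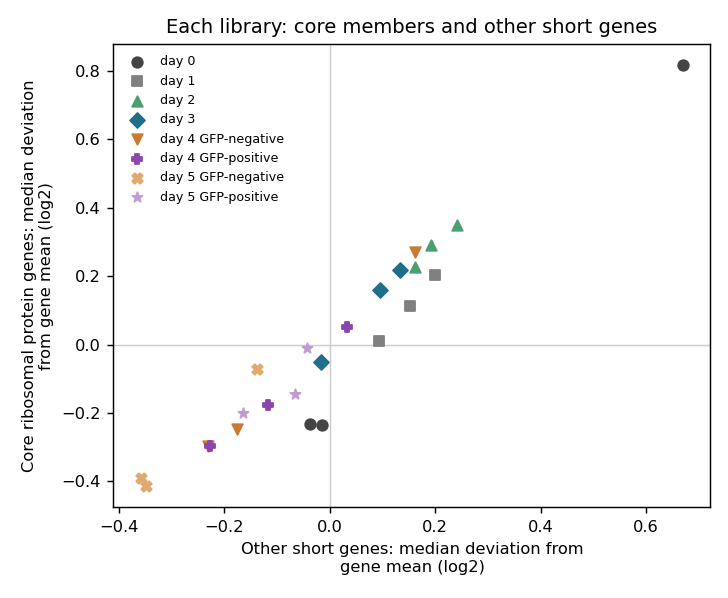
Each point is 1 of the 24 libraries, with the median log2 deviation from the gene's mean over all libraries for 458 other short genes on the x axis and for 76 core ribosomal protein genes on the y axis. The libraries lie along a rising line (correlation 0.964), and replicate 1 of day 0 is at the far end, at 0.67 and 0.82.

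The first comparison asked what changed from mESCs to the day before GFP sorting. From day 0 to day 3, 4 of 82 members (4.88%) were lower and none was higher at an adjusted p under 0.05 (limma, Benjamini-Hochberg over all 21005 genes tested), while 22.6% of all genes were lower and 21.1% higher. The unadjusted p was under 0.05 for the same number, 4, in both directions together. The members' median log2-fold-change was -0.01, with 39 above and 43 below 0, against -0.03 over all genes, and the core members lay between -0.59 and 0.40 with a median SE of 0.23 over the members. Rps6 had a log2-fold-change of -0.03 (SE 0.22), Rpsa -0.03 (SE 0.20) and Rps19, mutated in Diamond-Blackfan anaemia, 0.37 (SE 0.23, adjusted p = 0.218).

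This picture rested on 1 library. Without replicate 1 of day 0, 34 members were higher and 4 lower on day 3, where 24% of all genes were higher and 26.1% lower. The members' median log2-fold-change was then 0.35, and it was -0.20 without replicate 2 or 3 of day 0. Among those higher were Rpl17 by 0.83 (SE 0.16), Rpl39 by 0.78 (SE 0.21) and Rps19 by 0.74 (SE 0.17). Rps6 had 88542, 43474 and 42880 normalized counts on day 0 and 62295, 52545 and 47165 on day 3. The high day 0 library lay above all 3 values of day 3 and the other day 0 libraries below them.

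From day 3 to the GFP-positive cells of day 4, where the EF genes come on, 8 members (9.76%) were lower and none higher, while 20.9% of all genes were lower and 17.1% higher. The members' median log2-fold-change was -0.26, with 76 of 82 below 0, while that of all genes was -0.01. With quantile normalization these medians were -0.13 and 0.06. Beyond the 4 paralogues, the small subunit protein Rps26 fell by 0.61 on the log2 scale (SE 0.20, adjusted p = 0.0212). It had 45833, 56748 and 47797 normalized counts on day 3 and 37743, 32646 and 28653 in GFP-positive cells of day 4. The 2 groups did not overlap. The large subunit proteins Rpl23a, Rpl28 and Rpl19 fell by 0.57, 0.56 and 0.47 (adjusted p = 0.0357, 0.0152 and 0.0407). These 4 calls rested on single libraries. Without replicate 3 of the GFP-positive cells none of them passed (adjusted p = 0.0965 for Rps26 and 0.124, 0.0806 and 0.153 for the other 3). Without replicate 2 of day 3 only that of Rpl28 did, without replicate 1 of day 3 only that of Rps26, without replicate 2 of the GFP-positive cells only that of Rpl28, and Rpl23a was also lost without replicate 3 of day 3 (adjusted p = 0.056). In 24 members every GFP-positive value was below every day 3 value (28.4% of all genes), and in 1 member, the single row of Rpl5, every value was above (26% of all genes). With its near-identical copies added, Rpl5 was at -0.28 (SE 0.19, adjusted p = 0.26) in this step, so that the direction turned.

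With quantile normalization 8 members were lower in that comparison and with scaling to the total without the members 7. In these 2 fits 37.8% and 38.1% of all genes were called in either direction, against 9.76% of the members in each. Centring each library on the members' own median, which takes out by construction what they share, left 3 (Rpl10l, Rpl39l and Rps4l), where 11.2% of all genes were lower. Rps26 was then at -0.34 with an adjusted p of 0.0754. With only the 2 groups compared in the fit, 22 members were lower, where 22.9% of all genes were, and without replicate 1 of day 0 the number was 26, where 24.9% of all genes were.

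Between the gates, 2 of 82 members (2.44%) were lower in GFP-positive cells on day 4 and none higher, while 11.3% of all genes were lower and 4.43% higher. On day 5 the same number, 2, was lower and none higher, while 12.3% of all genes were lower and 3.78% higher. Both times they were Rpl10l and Rpl39l. The members' median log2-fold-change was -0.06 on day 4 and 0.18 on day 5, with 24 and 71 members above 0. The day 5 median was 0.05 with quantile normalization, where that of all genes was 0.08, and 0.09 with scaling to the total without the members, where that of all genes was -0.09. Without the third GFP-negative library of day 4, whose members were high (74 of 82 above their own mean, against 3 and 2 in the other replicates), the day 4 median was 0.13, and it lay between -0.15 and 0.13 when any of its libraries was left out. The day 5 median was 0.10 without the third GFP-positive library of that day. The change of the gate difference from day 4 to day 5 passed the threshold in none of the members (limma, 0 at an unadjusted p under 0.05), against 1.1% of all genes.

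From day 4 to day 5 in GFP-positive cells, 1 member (1.22%) was lower and none higher, while 5.24% of all genes were lower and 4.57% higher. That member was Rps4l, and the members' median log2-fold-change was 0.02. No other member passed, with 2 at an unadjusted p under 0.05 in all. The stricter rule of the study, an adjusted p under 0.001 with a log2-fold-change beyond 1.5, was used there on DESeq2 results with shrunken fold changes. Applied to the limma values here, it left 3 members lower on day 3 than on day 0 (6.12% of all genes) and 2 from there to GFP-positive cells of day 4 (7.36%). It left 2 between the gates of day 4 (3.63%), 2 between those of day 5 (4.61%), 0 from day 4 to day 5 (0.89%) and 0 for the change of the gate difference (0.0333%).

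**Figure D3:**
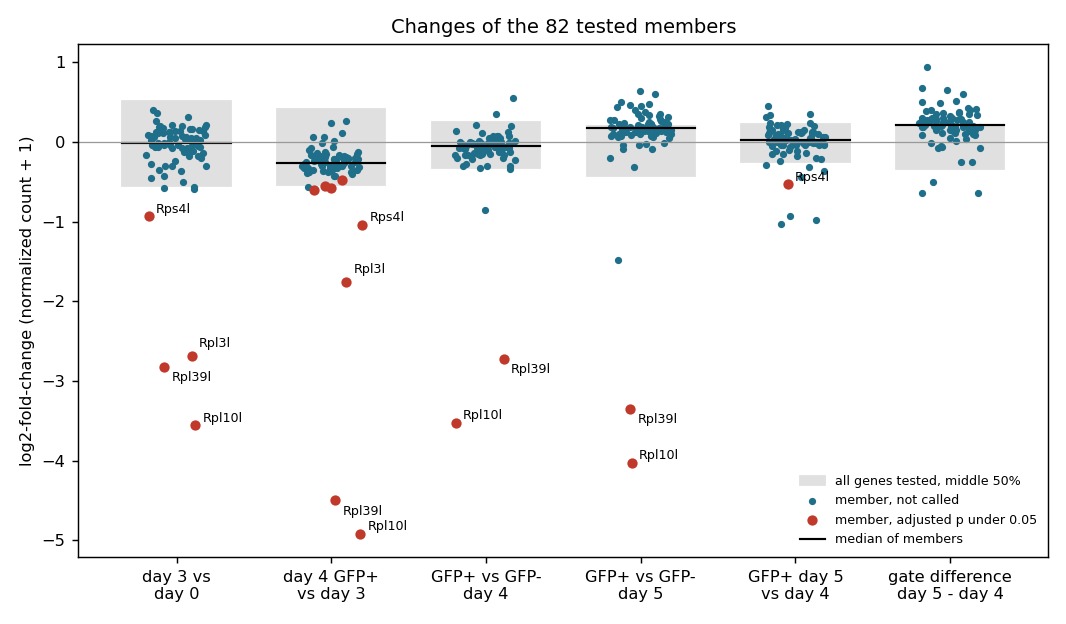
Each point is 1 of the 82 tested members, with its log2-fold-change in each of the 6 comparisons on the y axis, red where the adjusted p (limma) was under 0.05, beside the members' median (line) and the middle 50% of all 21005 genes (grey). All red points are below 0, with Rpl10l and Rpl39l lowest in the first 4, at -2.72 to -4.92.

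None of the proteins fixed for their special places in the ribosome was called with all libraries in the fit. The stalk proteins Rplp0, Rplp1 and Rplp2, which recruit the translation factors, had log2-fold-changes of -0.03, -0.17 and 0.06 from day 0 to day 3 and of -0.30, -0.18 and -0.16 from day 3 to GFP-positive cells of day 4, none past the threshold. Rpl38, which is needed for normal axial patterning in mice, was at -0.06 and -0.21, and Rpl24, the gene of the belly spot and tail mutant, at 0.05 and -0.33. In the 5S particle Rpl11 was at 0.21 and -0.26. Rpl5 was 1 of 6 members above 0 in the later step, at 0.26 (SE 0.12, adjusted p = 0.11) as a single row and at -0.28 with its copies added. The single row had 3013, 3144 and 3353 normalized counts on day 3 and 3745, 3869 and 3767 in GFP-positive cells of day 4. Without replicate 1 of day 0, Rpl24 and the single row of Rpl5 were called in the later step, at the same log2-fold-changes (adjusted p = 0.0116 and 0.0337), and Rpl11, Rpl24 and Rps19 were called higher from day 0 to day 3, by 0.57, 0.38 and 0.74 (adjusted p = 0.0024, 0.00858 and 0.00132).

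The member with the lowest adjusted p in the step to GFP-positive cells was Rpl39l (ENSMUSG00000039209, chr16:10170226-10174911, plus strand, in the build 38 coordinates of the table), an autosomal paralogue of the X-linked Rpl39 that is known from testis. Rpl39 is a very small protein at the exit of the ribosome's peptide tunnel. Their coding sequences have the same length, 156 bases, and are identical at 133 positions (85.3%). They are shown whole, from the GENCODE M21 transcripts, to set the pair side by side, with the 23 differing bases in capitals. Reads were assigned over whole transcripts, where 97.95% of the 31-base words of Rpl39l are unique to it.
Rpl39: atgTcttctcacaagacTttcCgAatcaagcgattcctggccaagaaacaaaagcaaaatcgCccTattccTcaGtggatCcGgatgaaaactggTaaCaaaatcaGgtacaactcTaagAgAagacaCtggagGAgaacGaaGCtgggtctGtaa
Rpl39l: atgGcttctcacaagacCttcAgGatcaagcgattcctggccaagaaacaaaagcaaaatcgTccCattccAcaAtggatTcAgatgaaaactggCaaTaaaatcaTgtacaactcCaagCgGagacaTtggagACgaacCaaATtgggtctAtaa

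Rpl39l had 4645, 1115 and 1216 normalized counts on day 0 and 1089, 1490 and 1223 on day 1. It had 620, 565 and 711 on day 2 and 245, 296 and 244 on day 3. The values of day 3 lay below all those of the earlier days, with a log2-fold-change from day 0 of -2.82 (SE 0.48, adjusted p = 5.87e-05), or -2.15 (SE 0.42, adjusted p = 0.000257) without replicate 1 of day 0. GFP-negative cells had 101, 53.8 and 78.9 on day 4 and 53.6, 50.7 and 67.6 on day 5. GFP-positive cells had 8.65, 25.2 and 5.17 on day 4 and 2.51, 4.66 and 8.14 on day 5. The gates did not overlap on either day, with log2-fold-changes of -2.72 (SE 0.48, adjusted p = 0.000273) and -3.35 (SE 0.48, adjusted p = 2.08e-05), and from day 3 to GFP-positive cells of day 4 Rpl39l fell by 4.50 (SE 0.48, adjusted p = 1.44e-07). Levels this low make the fold change on the log2(value + 1) scale smaller than the ratio of the values.

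The parent Rpl39 had 18012, 26209 and 21309 normalized counts on day 3 and 20715, 19394 and 18273 in GFP-positive cells of day 4, and these overlapped. Its log2-fold-changes in the 6 comparisons lay within 0.23 of 0, with SEs of 0.38, or 0.53 for the change of the gate difference. Without replicate 1 of day 0, Rpl39 was higher on day 3 than on day 0 by 0.78 (adjusted p = 0.00349). Per kilobase of transcript, Rpl39l made up 8.94% ± 0.69 (SD, n = 3) of the pair on day 0 and 7.44% ± 1.34 on day 1. It was 3.41% ± 0.06 on day 2 and 1.33% ± 0.14 by day 3. Its share was 0.469% ± 0.137 in GFP-negative and 0.0741% ± 0.0614 in GFP-positive cells of day 4, and 0.385% ± 0.039 and 0.0292% ± 0.0139 on day 5. Replicate 1 of day 0 was not the highest in this share, which was 8.15%, 9.44% and 9.23% in the 3 day 0 libraries.

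Rpl10l (ENSMUSG00000060499, chr12:66283379-66284401, minus strand) is an autosomal retrocopy of the X-linked Rpl10, which takes the place of its parent in male germ cells when the X chromosome is silenced. The coding sequences, of 645 bases each, are identical at 547 positions (84.8%). The first 120 bases of each are shown, with the 18 differing bases in capitals.
Rpl10: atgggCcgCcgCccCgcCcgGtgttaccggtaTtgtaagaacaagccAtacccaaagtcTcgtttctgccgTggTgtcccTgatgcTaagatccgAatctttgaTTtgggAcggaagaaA
Rpl10l: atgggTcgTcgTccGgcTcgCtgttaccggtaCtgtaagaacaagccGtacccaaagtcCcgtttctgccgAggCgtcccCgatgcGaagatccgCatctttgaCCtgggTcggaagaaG

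Rpl10l had 2255, 1782 and 1761 normalized counts on day 0 and 1249, 1164 and 1257 on day 1. It had 514, 544 and 483 on day 2 and 156, 161 and 171 by day 3. No value of a later day reached the lowest of an earlier one, with a log2-fold-change of -3.56 by day 3 (SE 0.54, adjusted p = 1.71e-05). GFP-negative cells had 78.2, 62.4 and 46.4 on day 4 and 40.6, 39.5 and 57.9 on day 5. GFP-positive cells had 2.29, 16.5 and 1.72 on day 4 and 2.76, 5.06 and 0 on day 5. The gates did not overlap, with log2-fold-changes of -3.53 (SE 0.54, adjusted p = 5.96e-05) on day 4 and -4.03 (SE 0.54, adjusted p = 1.05e-05) on day 5. From day 3 to GFP-positive cells of day 4 Rpl10l fell by 4.92 (SE 0.54, adjusted p = 2.43e-07). Rpl10 itself was at 0.55 (SE 0.24, adjusted p = 0.14) between the gates of day 4, where its values of 13732, 9262 and 13388 in GFP-negative and 19298, 15529 and 17768 in GFP-positive cells did not overlap. The Rpl10 row holds 26.5% of the level of Rpl10 and its near-identical copies, and with these added the gate difference was 0.06 (SE 0.21, adjusted p = 0.904). With the replicate number as a block, the single row was called higher between the gates of day 4 (adjusted p = 0.0312) and lower on day 3 than on day 0, at -0.45 (adjusted p = 0.0361). The share of Rpl10l in the pair per kilobase was 6.95% ± 1.00 on day 0 and 0.876% ± 0.248 on day 3 with the single Rpl10 row, and 2.17% and 0.183% with the copies of Rpl10 added.

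Both genes stayed called when the libraries were centred on the members' median, so that they departed from the other ribosomal protein genes as well as from the library scale. Centred, Rpl10l was at -3.50 and Rpl39l at -2.76 from day 0 to day 3 (adjusted p = 8.96e-05 and 2.09e-05), and at -3.45 and -2.64 between the gates of day 4 (adjusted p = 0.000319 and 0.000114). Their gate difference did not pass the threshold for a change between days, at -0.51 (SE 0.77) for Rpl10l and -0.63 (SE 0.67) for Rpl39l.

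Markers of pluripotent cells and, in some of these comparisons, of other cell types moved with both. The 6 markers Nanog, Pou5f1, Zfp42, Esrrb, Klf4 and Dppa5a were all lower in each of the 4 comparisons in which Rpl10l and Rpl39l were called. Their summed level was 136072 to 180107 normalized counts on day 0, 36002 to 47086 on day 3, 13702 to 16412 in GFP-negative and 1205 to 2510 in GFP-positive cells of day 4, and 6037 to 7296 and 409 to 540 on day 5. Each of the 6 reached 10 in at least 1 library of every group. The 7 markers of mesendoderm were also all lower in GFP-positive cells, at 7157 to 10775 against 328 to 762 on day 4, and from day 0 to day 3 they had 4 higher and 2 lower. Of the 5 endothelial markers Pecam1, Cdh5, Kdr, Tie1 and Tek, 4 were lower in each of the 4 comparisons. The summed level of the 5 was 2264 to 4942 on day 0, 818 to 969 on day 3, 964 to 1815 in GFP-negative and 133 to 262 in GFP-positive cells of day 4, and 1474 to 2177 and 731 to 896 on day 5. On day 5, 2 of the 5 stayed under 10 in every GFP-positive library. Of the 6 markers of surface ectoderm and neural crest, 2 were higher and 1 lower from day 0 to day 3, and 1 higher and 3 lower from there to GFP-positive cells of day 4. Between the gates 3 were lower in GFP-positive cells on day 4 and 5 on day 5, with sums of 7245 to 11420 against 4526 to 5106 and of 7709 to 11753 against 3089 to 3342. Of 5 neuronal markers, 1 was higher and 2 lower from day 0 to day 3. From there to GFP-positive cells of day 4, 1 was higher and 1 lower. Between the gates 1 was higher and none lower on day 4. Their sums there were 5632 to 6812 in GFP-positive against 4525 to 5232 in GFP-negative cells. On day 5, 1 was higher and 2 lower. Of 5 blood markers 3 were tested, and none was higher in these comparisons. Lower were 0 and 1 in the earlier steps and 1 and 2 between the gates. The part of these cells in the levels of Rpl10l and Rpl39l was not tested.

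Rpl3l (ENSMUSG00000002500, chr17:24727820-24736143, plus strand) encodes the form of Rpl3 known from striated muscle, and its coding sequence is identical to that of Rpl3 at 73.2% of aligned positions. It had 90.1, 61.4 and 77.0 normalized counts on day 0 and 8.94, 16.5 and 8.44 on day 3, a log2-fold-change of -2.69 (SE 0.52, adjusted p = 0.000224). In GFP-positive cells of day 4 it had 2.60, 2.99 and 1.95, a further log2-fold-change of -1.76 (SE 0.52, adjusted p = 0.00975) that was not called without replicate 2 of day 3 (adjusted p = 0.0555) or with centring (adjusted p = 0.0619). The groups did not overlap in either step, yet all of these levels are low. Between the gates of day 5 it was at -1.48 (SE 0.52, adjusted p = 0.0553), which was called without replicate 1 of day 0 (adjusted p = 0.0456).

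Rps4l (ENSMUSG00000063171, chr6:148354656-148355598, plus strand) is a processed copy of the X-linked Rps4x, annotated as a transcribed pseudogene, and is identical to it at 79.9% of 783 aligned positions. Of the 4 falling copies it had the highest level per kilobase. Rps4l had 17373, 23153 and 20137 normalized counts on day 0, 12555, 9917 and 9356 on day 3, 5749, 5219 and 4458 in GFP-positive cells of day 4 and 3638, 3110 and 3922 in those of day 5. Each of these groups lay below the one before. The log2-fold-changes were -0.93 (SE 0.14, adjusted p = 1.11e-05), -1.04 (SE 0.14, adjusted p = 2.85e-06) and -0.53 (SE 0.14, adjusted p = 0.0143). The last was not called without replicate 1 or 2 of day 4 (adjusted p = 0.0927 and 0.056), without replicate 2 of day 5 (0.0899) or with centring (0.348). Of the 6 markers of pluripotent cells, 6, 6 and 4 were lower in these 3 steps, and their part was not tested. Unlike Rpl10l and Rpl39l, Rps4l had no called difference between the gates, at -0.30 (SE 0.14, adjusted p = 0.176) on day 4 and -0.20 (SE 0.14, adjusted p = 0.403) on day 5. Rps4x was at 0.00 (SE 0.21), -0.10 and -0.04 in the same 3 steps, and without replicate 1 of day 0 it was higher in the first by 0.38 (SE 0.13, adjusted p = 0.0162). The share of Rps4l in the pair per kilobase was 12.0%, 28.5% and 26.1% in the 3 libraries of day 0, where replicate 1 stood apart, and 20.7% ± 0.29 on day 1. It was 12.3% ± 0.90 on day 3 and 4.94% ± 0.42 in the last of these groups.

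Rps27l, a paralogue of Rps27 known as a p53 target, was not called in any comparison with all libraries in the fit. It had 25824, 7700 and 7777 normalized counts on day 0 and 7565, 9347 and 7685 on day 3, and these overlapped. Its coding sequence differs from that of Rps27 at 61 of 255 positions. The log2-fold-change was -0.50 (SE 0.30, adjusted p = 0.184) from day 0 to day 3 and -0.57 (SE 0.30, adjusted p = 0.147) from there to GFP-positive cells of day 4. Without replicate 1 of day 0 the first of these was 0.08 (SE 0.16, adjusted p = 0.73), and the later step was called at the same log2-fold-change (SE 0.15, adjusted p = 0.0033). Rps27 itself was at 0.19 (SE 0.30) and -0.32 (SE 0.30).

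**Figure D4:**
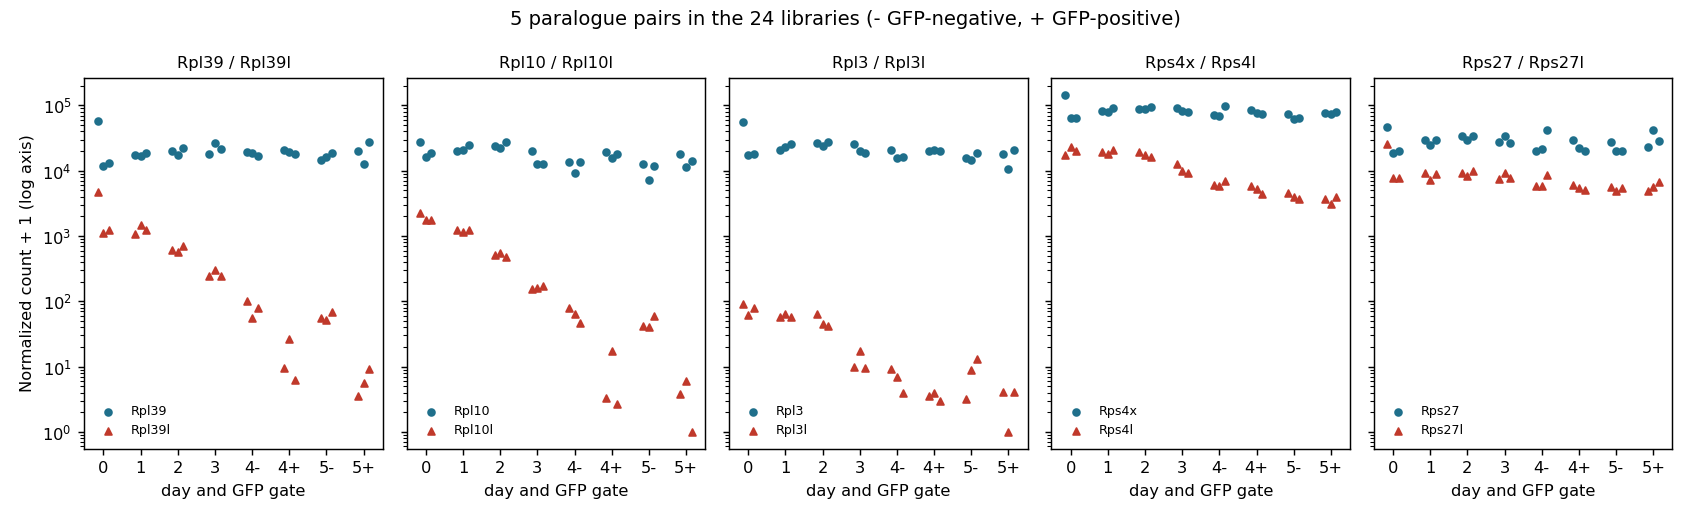
Each panel gives a ribosomal protein gene (blue circles) and its paralogue or retrocopy (red triangles) in the 24 libraries, as normalized count + 1 on a log axis, by day and GFP gate. Rpl39l and Rpl10l fell from above 1000 on day 0 to below 30 in GFP-positive cells, while no value of Rpl39 or Rpl10 was below 7223.

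Levels between genes were compared per kilobase of transcript, averaged over the 24 libraries. The highest were Rpl41, the shortest of the proteins, at 155219 normalized counts per kilobase, Rplp1 at 119092 and Rps18 at 103142. The lowest were Rpl32l, Rpl3l and Rpl6l at 6.0, 19.4 and 24.0. The order changed little, with rank correlations between 2 groups of 0.954 to 0.997 over the members.

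The spread of levels between core members was smaller when near-identical copies were added to each. The mouse genome holds many processed copies of these genes, and 527 other entries of the table share at least 30% of their 31-base words with a member, 198 of them at 10 or more normalized counts on average. For 54 members the own row held over 90% of the family's summed level, and for 16 it held under 50%. Rpl5 held 4.06% (3222 normalized counts against 76158 on its copies), Rps13 5.90%, Rps12 5.96% and Rpl12 6.47%. With the copies added, the SD of the core members' log2 level per kilobase went from 1.24 to 0.57, and their lowest level from 1575 to 14245 per kilobase. The called members were the same under this sum in each comparison except for Rpl14, which was then also lower from day 3 to GFP-positive cells of day 4. The single-row values of these 16 members under 50% are therefore uncertain. Among them are Rpl5, Rps12, Rps13, Rpl12, Rpl27, Rpl3 and Rpl10, and also Rplp0 (45.65%) and Rpl28 (49.93%). Rpl36, of whose 31-base words only 5.95% are unique, is uncertain too.

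**Figure D5:**
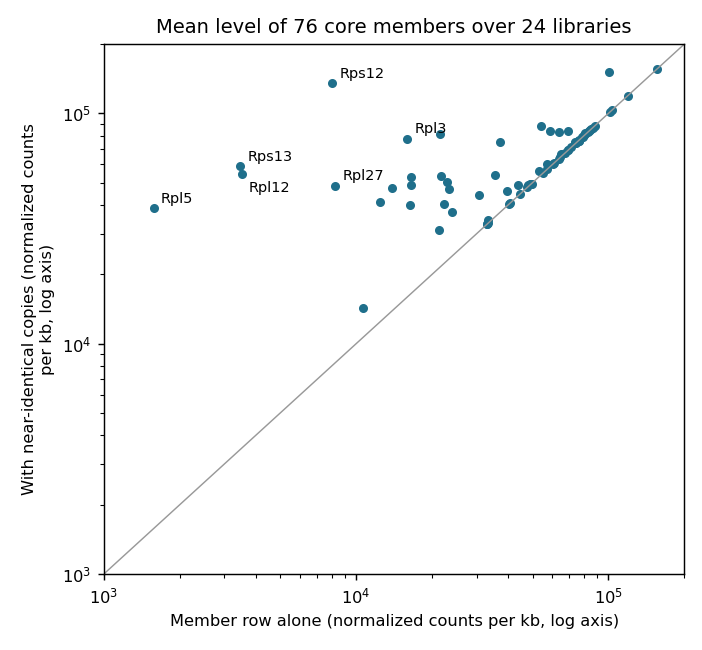
Each point is 1 of 76 core members, with its mean level per kilobase of transcript over the 24 libraries as a single row on the x axis and with its near-identical copies added on the y axis (both log axes). Points on the line gained nothing, and Rpl5, Rps13, Rpl12, Rps12, Rpl27 and Rpl3, which hold 4.06% to 20.5% of their family, rose into the range of the others.

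The start sites were searched for the pyrimidine stretch for which these mRNAs are known. In RefSeq promoters (GRCm38.p6), matched by symbol for 61 members, a run of at least 6 pyrimidines (C or T, on the strand of the gene) lay within the 30 bases around the start in 57.4% of members and in 29.0% of all 27025 promoters. Runs of 6 purines were in 4.9% and 32.1%. Over the whole 300 bases and both strands, CCGGAAG, the core of sites for ETS factors, was in 39.3% of members and 9.1% of all, TATAAA in 11.5% and 14.2%, and CACGTG, the E-box bound by Myc, in 8.2% and 7.2%. These are matches of letters in a window. For each gene only the most upstream annotated start was used, so that runs at other starts would be missed. The windows of Rps6 and of the Rpl39, Rps27 and Rpl10 pairs are shown to set the copies beside their parents, with the pyrimidine run in capitals. Neither Rpl10 nor Rpl10l holds such a run in this window. That of Rpl3l, which holds none either, is shown alone.
Rps6 (chr4:86857353-86857382, minus strand): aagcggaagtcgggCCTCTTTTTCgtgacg
Rpl39 (chrX:37085208-37085237, minus strand): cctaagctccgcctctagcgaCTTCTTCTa
Rpl39l (chr16:10170213-10170242, plus strand): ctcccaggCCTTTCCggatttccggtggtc
Rps27 (chr3:90213634-90213663, minus strand): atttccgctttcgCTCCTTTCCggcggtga
Rps27l (chr9:66946071-66946100, plus strand): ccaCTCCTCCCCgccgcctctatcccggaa
Rpl10 (chrX:74270801-74270830, plus strand): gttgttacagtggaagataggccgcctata
Rpl10l (chr12:66284387-66284416, minus strand): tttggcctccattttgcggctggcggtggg
Rpl3l (chr17:24727811-24727840, plus strand): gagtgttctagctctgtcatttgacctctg

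Among 7 ribosomal proteins outside the naming rule, Rpl36al, an autosomal copy of Rpl36a, fell by 0.72 (log2) between day 3 and the GFP-positive cells of day 4 (SE 0.16, adjusted p = 0.00108). Rpl7l1 fell by 0.37 from day 0 to day 3 (adjusted p = 0.00156). The other members of this list were not called in any comparison.

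Of 14 translation factors and other genes whose mRNAs also start with a TOP motif, 5 were higher and none lower on day 3 than on day 0, with a median of 0.13, where 21.1% of all genes were higher and 22.6% lower. Eef1a1, which delivers aminoacyl-tRNA, rose by 0.69 (SE 0.18, adjusted p = 0.00411), the translocase Eef2 by 0.41 (adjusted p = 0.0196), Eif3f by 0.34 (adjusted p = 0.00688) and Eif4b by 0.33 (adjusted p = 0.014). The rise of Eef2 was not called without replicate 3 of day 0 or replicate 1 of day 3 (adjusted p = 0.0613 and 0.111). From day 3 to GFP-positive cells of day 4, Eef2 and Eif4b fell by 0.37 and 0.27 and the histone chaperone Nap1l1 rose by 0.41. None of these was called without replicate 1 of day 3 (adjusted p = 0.189, 0.132 and 0.101), and those of Eef2 and Eif4b were lost without several other libraries too. Between the gates none of the list was called on day 4. On day 5 Nap1l1 alone was, higher in GFP-positive cells by 0.56 (limma, SE 0.13, adjusted p = 0.00324), where 3.78% of all genes were higher and 12.3% lower.

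Many ribosome assembly genes fell. Of 32 genes of ribosome biogenesis 16 were lower and none higher on day 3 than on day 0, with a median of -0.35, where 22.6% of all genes were lower. Rrp9 fell by 0.90, the RNA polymerase I factor Rrn3 by 0.89 (adjusted p = 1.8e-07), Utp20 by 0.84 and Heatr1 by 0.70. From day 3 to GFP-positive cells of day 4, 13 were lower and none higher, with a median of -0.38, where 20.9% of all genes were lower. Utp14a fell by 0.86 (adjusted p = 1.93e-06), Wdr12 by 0.59, Polr1b by 0.57 (lost without replicate 1, 2 or 3 of day 3 or 1 or 2 of the GFP-positive cells, adjusted p = 0.0618 to 0.1) and nucleostemin, Gnl3, by 0.55. Between the gates 1 was lower on day 4, Utp14a, and none on day 5, where 11.3% and 12.3% of all genes were lower. That of Utp14a was lost without most libraries of day 4, with adjusted p up to 0.207. From day 0 to day 3 and from there to GFP-positive cells of day 4, all 6 markers of pluripotent cells were lower too. Their part in the fall of this list was not tested. The difference between this list and the ribosomal protein genes was not tested.

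Regulators of the pathway were called in both directions. Of 21 Myc and mTORC1 genes, 3 were higher and 4 lower on day 3 than on day 0, where 21.1% and 22.6% of all genes were, with log2-fold-changes of 1.56 for Mycl, -0.93 for Myc, -1.66 for the Myc antagonist Mxd3 and -0.86 for the translation repressor Eif4ebp1. In the step to GFP-positive cells of day 4, 3 were higher and 6 lower, where 17.1% and 20.9% of all genes were. The mTOR inhibitor Deptor fell by 3.71 (adjusted p = 1.19e-10), Mxd4 rose by 2.02, and Eif4ebp1 and Larp1 fell by 0.98 and 0.88. Between the gates 1 was higher and 4 lower on day 4, where 4.43% and 11.3% of all genes were, and 1 was higher and 3 lower on day 5, where 3.78% and 12.3% were. Deptor was lower in GFP-positive cells on both days, at -2.08 and -1.12, and the Myc antagonist Mxd4 higher, at 0.96 and 0.57. Myc and its partner Max were lower on day 4, at -0.74 and -0.38, and Mycl and Mycn on day 5, at -0.89 and -0.59. The call of Myc was lost without most libraries of day 4 (adjusted p up to 0.13) and that of Mxd4 on day 5 without 3 libraries of that day (adjusted p up to 0.123). From day 4 to day 5 in GFP-positive cells Myc rose by 0.99 (adjusted p = 0.00635) and Mycn fell by 0.41 (adjusted p = 0.0466), the latter lost without most of the 24 libraries, with adjusted p up to 0.156.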

How the data were processed

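PolyA RNA was sequenced from 24 samples. Per the methods, reads were assigned by kallisto (version 0.43.1, from the submitters' processing notes) to an Ensembl transcript index, coding and non-coding, of mouse build 38 (mm10). This tool divides reads that fit several transcripts by estimate. The authors deposited the estimates after division by DESeq2 size factors, a normalized signal per gene, called normalized counts here. The DESeq2 version and the strandedness are not given in the sources used here. The values are not whole, and whole reads could not be recovered, so that no count model was run and no counting interval is given. Totals of 39849110 to 51587535 per library limit mostly genes with few reads. The table also holds 9 columns of the authors' own calls and comparisons, which were not used.

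Values were analysed as log2(value + 1) for 21005 entries with at least 10 in at least 3 libraries, with limma 3.58.1 (R 4.3.3), all 24 libraries in 1 fit without a block, eBayes with trend and two-sided tests with Benjamini-Hochberg adjustment within a comparison. A call needed an adjusted p under 0.05 at any fold. The study's rule, under 0.001 and a log2-fold-change above 1.5, was an alternative on the same limma values. Conditions and replicate numbers came from the labels.

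The members and gene lists were chosen with earlier results of these data known. Named were the called members with non-overlapping replicates (up to 5 per direction and comparison), a fixed set of paralogue pairs and special proteins, the 3 highest and lowest per kilobase, and up to 4 called genes of each list. Rpl23a, Rpl28, Rpl19, Rpl14, Rpl17, Rps2 and the members named for their copies, start windows or Rpl36 for its shared words were named after their values were seen. Lengths (the shortest principal coding transcript), gene types and coding sequences came from GENCODE M21 (GRCm38), promoters from RefSeq. Python 3.11.15 with numpy 2.4.6, pandas 2.3.3 and matplotlib 3.10.9 made the descriptions. As alternatives, the pseudocount was set to 0.5 or 5 and the filter to 50 or none, with quantile normalization, scaling to the total without the members, centring on the members' median, no trend, only the groups compared, a replicate block, the study's rule and leaving out each library. Summing members with near-identical copies was added after seeing the data. The procedure was tested on simulated data. From the list of ribosomal proteins outside the naming rule, 1 gene is not reported here. Deviations of libraries that share a replicate number correlated at -0.00054 on average (84 pairs).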

Additional observations from a re-analysis of the deposited data

How the results depend on the processing

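The count of members higher on day 3 than on day 0 was 0, and 3 with quantile normalization, 1 with centring on the members' median, and 0 to 34 when each library was left out in turn, 34 without replicate 1 of day 0. The count lower was 4 to 6 under these omissions. From day 3 to GFP-positive cells of day 4, 1 was higher with scaling to the total without the members, with only the groups compared or without replicate 1 of day 0, the range of omissions being 0 to 1. The count lower, 8, was 3 with centring, 22 with only the groups compared, 2 by the study's rule, and 4 to 26 under omissions, with 5 and 4 without replicates 1 and 2 of day 3, 5 and 4 without replicates 2 and 3 of the GFP-positive cells of day 4 and 26 without replicate 1 of day 0. The single lower call from day 4 to day 5, Rps4l, was 0 with centring and by the study's rule, and 0 to 1 under omissions. Between the gates omissions gave 2 lower on day 4 and 2 to 3 on day 5. The cause of these shifts was not tested. The members' median from day 0 to day 3 was 0.08 with quantile normalization and 0.04 with scaling to the total without the members.

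With the replicate number as a block, 1 member was higher between the gates of day 4 (Rpl10), where the fit without it had 0. Deviations of same-numbered libraries correlated above 0.1 in 10 of 84 pairs and averaged -0.06 and 0.03 between the gates of days 4 and 5. Only for day 3 and the GFP-negative cells of day 5, which were not compared, did all 3 pairs exceed 0.1, so that the numbers were not taken to pair the samples. No other count moved by more than 1.5 times with the block.

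Of 4235 values under alternatives, for the members named by rule or in the fixed set, 24 passed the threshold only there. A further 10 no longer passed it, and no called value changed sign. These counts leave out members named after their values were seen, such as Rpl23a, Rpl28 and Rpl19, whose calls were also lost under some alternatives. In 166 the sign differed with neither value called. Depth limits Rpl3l, Rpl10l and Rpl39l in GFP-positive cells, where single values were under 10.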

Other observations

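The proteins of the mitochondrial ribosome are imported from the cytosol. Of their 77 tested genes, 25 were lower and none higher on day 3 than on day 0, with a median log2-fold-change of -0.31, where 22.6% of all genes were lower. Mrps31 fell by 1.00, Mrps18b by 0.89, Mrps12 by 0.86 and Mrpl4 by 0.84 (limma, adjusted p at most 0.000271). From day 3 to GFP-positive cells of day 4, 20 were lower and 2 higher, where 20.9% and 17.1% of all genes were, with Mrpl34 at -1.26 and Mrps24 at -1.12. Between the gates 1 was lower and none higher on day 4, Mrpl34 at -0.52 (adjusted p = 0.0196), where 11.3% and 4.43% of all genes were. On day 5, 2 were higher and none lower, where 3.78% and 12.3% were. These were Mrps11 by 0.55 (adjusted p = 0.0034) and Mrpl49 by 0.28 (adjusted p = 0.0495). From day 4 to day 5 in GFP-positive cells only Mrpl19 was called, higher by 0.42 (adjusted p = 0.0327), where 4.57% of all genes were higher. The difference between the 2 kinds of ribosome was not tested.

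Among 8 host genes of small nucleolar RNAs, which guide the modification of ribosomal RNA, Snhg14 had 4165, 685 and 884 normalized counts on day 0 and 2228, 10049 and 9085 on day 3, and these overlapped. The log2-fold-change of 2.11 (SE 0.67, adjusted p = 0.0144) was not called without replicate 2 or 3 of either day (adjusted p = 0.0609 to 0.0816). Snhg5 and Snhg12 fell by 0.66 and 0.53 from day 3 to GFP-positive cells of day 4 (adjusted p = 0.0483 and 0.0172), the first lost without most of the 24 libraries (adjusted p up to 0.148) and the second without replicate 2 of day 3 or 3 of the GFP-positive cells (0.0529 and 0.0624). None was called between the gates.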
